A study of Mus musculus with 2 samples.

Results

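The small leucine-rich proteoglycans are secreted matrix proteins built on a core of leucine-rich repeats. The 9 genes described here are Dcn (decorin), Lum (lumican), Bgn (biglycan), Fmod (fibromodulin), Ogn (osteoglycin, also called mimecan), Omd (osteomodulin), Prelp, Aspn (asporin) and Podn (podocan). They were chosen by gene symbol as a family, not by their levels, and are 9 of the 32246 gene symbols in the count tables. Each symbol was found once.

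As background, members of this family sit on collagen fibrils, where they help to set fibril spacing and thickness, and several carry chondroitin, dermatan or keratan sulphate chains. Decorin and biglycan bind growth factors such as TGF-beta, and biglycan released from matrix can act as a ligand of Toll-like receptors. In fat, stromal progenitor cells make much of the fibrillar matrix, and Dcn is widely used as a marker of such fibroblast-type cells. Adipose progenitors are commonly divided into a Dpp4-positive state that lies in the interstitial sheath, an Icam1-positive state nearer to adipocyte commitment, and a state marked by F3, the gene of tissue factor.

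The study made droplet single-cell RNA libraries from mouse subcutaneous white fat to ask how PAQR4, a membrane protein of the progestin and adipoQ receptor family, affects the progenitor pool. The stromal vascular fraction, the part of fat left when adipocytes are removed, was sorted for cells without CD45, the surface protein of leukocytes. There was 1 library labelled WT and 1 labelled Paqr4 transgenic. Cells of 3 mice were pooled according to the series text, which does not say whether this holds for each genotype, and the labels name no promoter for the transgene, no strain and no age. Neither genotype was replicated, so the genotypes could not be tested against each other. Every interval below is a 95% interval that covers counting error only, and a difference between the libraries is a difference between 2 pools.

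The libraries also stood apart in sex. Xist, the RNA of the silenced X chromosome, had a UMI (unique molecular identifier, 1 counted RNA molecule) in 94.1% of WT and 0.221% of transgenic progenitors, and Y-linked genes had one in 2.04% and 94.0%. Genotype and sex cannot be told apart in any difference between the libraries. Paqr4 itself was at 7.88 UMIs per 1000000 UMIs of the progenitors (UPM; 202 UMIs, exact Poisson interval 6.83 to 9.04) in WT and 9.49 (250 UMIs, 8.35 to 10.7) in transgenic progenitors. The log2 ratio was 0.27, with an interval from −0.00465 to 0.54, so the count of this gene did not separate the libraries at this depth.

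The libraries held 44145257 and 43084906 UMIs and gave 1328 WT and 1521 transgenic cells, at medians of 21612.5 and 18711 UMIs per cell. Progenitor clusters, in which at least 6 of 10 markers such as Pdgfra, Col1a1 and Cd34 were on, held 1127 and 1360 of these cells. They comprised Dpp4-like cells (232 WT and 192 transgenic), Icam1-like cells (290 and 442, with the heat shock genes Hspa1a and Hspa1b among the leading genes of their main cluster), F3-like cells (186 and 304) and 2 clusters without a state name, called cluster 1 (378 and 309, led by Adamts4, Il6 and Cxcl10, among others) and cluster 6 (41 and 113). Endothelial cells, with 10 of 10 markers on, numbered 95 and 79. Ptprc, which encodes CD45, had a UMI in 0.151% and 0.592% of all cells. Summed over its list in progenitors, the B or plasma cell markers stood at 1.29 UPM in WT and 27.1 in transgenic, with 3 and 1 of 7 genes at 0. The macrophage markers stood at 3.12 and 2.66, with 3 and 1 of 8 at 0. No members were used to form or to name the clusters.

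Several members are neighbours in the genome, and their upstream sequences are shown because the adjacent genes of chromosome 13 differed widely in level. In GRCm38 (GENCODE M21), Aspn (ENSMUSG00000021388, chr13:49544443-49567565), Omd (ENSMUSG00000048368, chr13:49582462-49592822) and Ogn (ENSMUSG00000021390, chr13:49608046-49624501) lie on the plus strand with gaps of 14.896 and 15.223 kb. Dcn (ENSMUSG00000019929, chr10:97479609-97518143) and Lum (ENSMUSG00000036446, chr10:97565128-97572703) lie 46.984 kb apart on the plus strand. Prelp (ENSMUSG00000041577, chr1:133910304-133921414, minus strand) and Fmod (ENSMUSG00000041559, chr1:134037254-134048277, plus strand) are 115.839 kb apart. Podn (ENSMUSG00000028600) is at chr4:108014791-108096445 on the minus strand and Bgn (ENSMUSG00000031375) at chrX:73483602-73495933 on the plus strand.

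RefSeq's promoter table for GRCm38.p6 held 7 of the 9 members. The 250 bases before the start site are given 5′ to 3′ on the gene's strand for the 3 neighbours on chromosome 13 (chr13:49544193-49544442 for Aspn, chr13:49582212-49582461 for Omd and chr13:49607765-49608014 for Ogn) and for Bgn (chrX:73483351-73483600), the member whose level differed most between the libraries in Dpp4-like cells. Capitals mark matches on either strand to 3 motifs. The TATA box was searched as TATAAA. The GC box was searched as GGGCGG. The CCAAT box was searched by the letters of its name.
Aspn: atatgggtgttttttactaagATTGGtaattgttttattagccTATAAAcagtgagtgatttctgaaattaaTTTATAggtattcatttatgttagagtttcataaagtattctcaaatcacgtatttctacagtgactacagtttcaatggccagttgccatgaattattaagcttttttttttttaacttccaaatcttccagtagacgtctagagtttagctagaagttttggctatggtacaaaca
Omd: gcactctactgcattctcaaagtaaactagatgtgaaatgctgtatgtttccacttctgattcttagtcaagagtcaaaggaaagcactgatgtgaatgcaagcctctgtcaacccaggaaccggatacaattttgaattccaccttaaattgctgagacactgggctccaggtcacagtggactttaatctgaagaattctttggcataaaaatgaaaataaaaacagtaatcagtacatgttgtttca
Ogn: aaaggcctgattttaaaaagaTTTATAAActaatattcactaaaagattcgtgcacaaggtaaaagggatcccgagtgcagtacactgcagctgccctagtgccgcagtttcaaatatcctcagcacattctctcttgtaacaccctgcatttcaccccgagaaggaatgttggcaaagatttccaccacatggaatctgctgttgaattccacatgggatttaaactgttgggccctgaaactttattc
Bgn: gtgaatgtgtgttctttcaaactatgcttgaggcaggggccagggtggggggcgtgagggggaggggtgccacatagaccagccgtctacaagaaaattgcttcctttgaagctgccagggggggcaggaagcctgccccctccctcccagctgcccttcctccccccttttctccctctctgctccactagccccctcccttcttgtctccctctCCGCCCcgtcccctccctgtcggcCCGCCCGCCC
The Aspn sequence held 2 TATAAA matches and 1 CCAAT match, at a GC content of 30.0%, lower than all but 1.47% of promoters in the table. Omd held no match at 38.4% GC, and Ogn held 2 overlapping TATAAA matches at 42.0% GC. Bgn held 3 GC boxes, of which 2 overlap, and no TATAAA at 64.4% GC. Among all 32851 promoters of this length, 12.4% held TATAAA, 32.7% the GC box and 33.8% CCAAT, and the median GC content was 52.4%. Of the others, Prelp held 1 CCAAT, Fmod none of the motifs, and Podn 2 GC boxes in 1 of its 2 entries. A match describes letters only.

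In progenitors the family took 1.22% of all WT UMIs and 1.33% of transgenic UMIs, and 1 member made up most of it. All levels are in UPM of the class named; each molecule is counted once at its 3′ end, so the level is not scaled by transcript length. Dcn stood at 9613 UPM in WT (9575 to 9651) and 10400.3 in transgenic (10361 to 10439), which made it the 4th and the 3rd most abundant of all genes. It held 78.5% of the family's UMIs in each library. The plot of levels by cell class sets the 9 genes side by side.

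**Figure D1:**
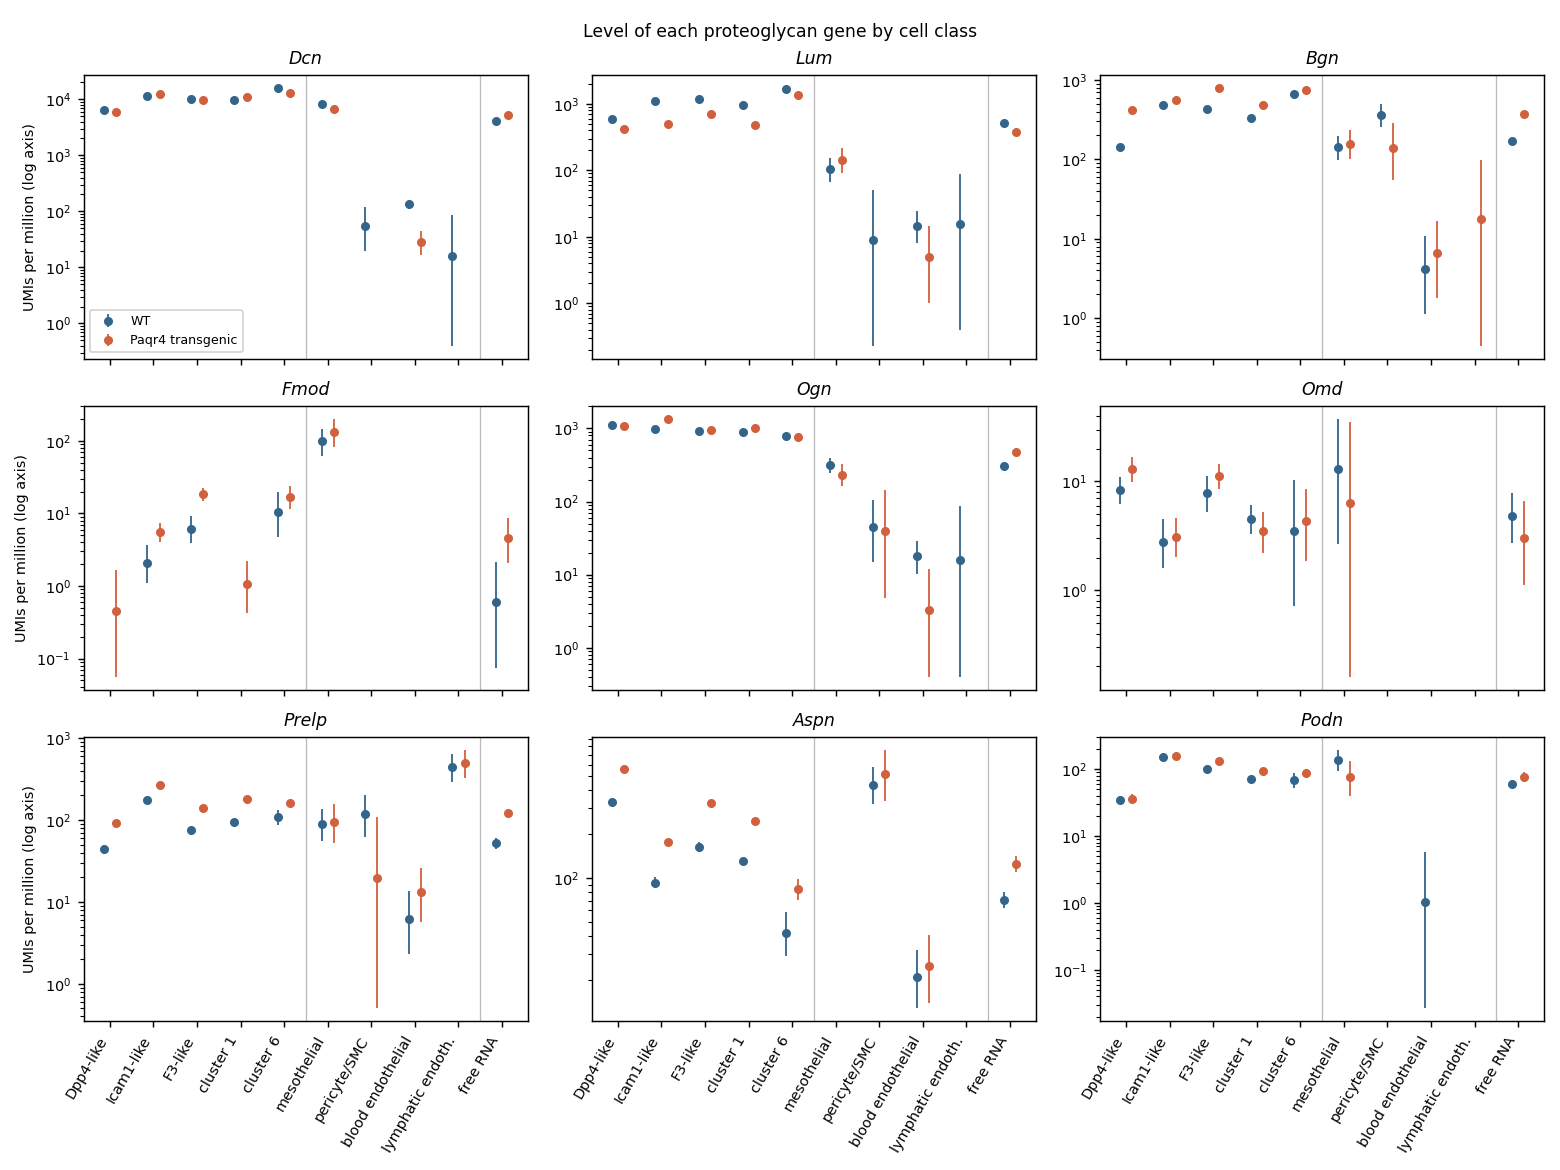
UPM on a log axis for each member in progenitor states, other cell types and free RNA (barcodes with 50 or fewer UMIs); points are the WT and Paqr4 transgenic libraries, bars are 95% Poisson intervals, and values of 0 are not drawn. Dcn lies between 5972 and 16023 in the progenitor classes and at 134 or below in endothelial cells. Fmod and Omd stay at 18.4 or below in the progenitor classes drawn. Cluster 8, a part of the Icam1-like cells that is not drawn on its own, had Fmod at 97.5 in transgenic (15 UMIs, 11 cells in the cluster).

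Below Dcn in WT came Ogn at 965 (953 to 977) and Lum at 954 (942 to 966), whose intervals overlap. Bgn followed at 347, Aspn at 172, Prelp at 98.0 and Podn at 84.8, all with intervals apart from their neighbours'. Omd at 5.50 and Fmod at 1.72 UPM were the lowest, with 141 and 44 UMIs. In transgenic progenitors Ogn at 1094 (1082 to 1107) was again second. Lum at 584 (575 to 593) and Bgn at 581 (572 to 590) did not differ beyond their intervals. The share of Lum in the family's UMIs was 7.79% in WT and 4.41% in transgenic, and that of Bgn 2.83% and 4.39%. Fmod at 7.10 (6.12 to 8.19) and Omd at 6.64 (5.69 to 7.70) came last, with overlapping intervals.

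Among the class I members, which carry chondroitin or dermatan sulphate chains except for asporin, Bgn and Aspn were higher in the transgenic library and Dcn was close to equal. Bgn, which binds TGF-beta and BMP ligands as well as collagen, had 347 UPM in WT (8891 UMIs) and 581 in transgenic (15312 UMIs). The log2 ratio of transgenic over WT was 0.75 (0.71 to 0.78, exact conditional binomial interval), or 1.68-fold. Aspn, which has an acidic stretch in its core protein and binds collagen and TGF-beta, had 172 and 282, a log2 ratio of 0.71 (0.66 to 0.77) or 1.64-fold. For Dcn the log2 ratio was 0.11 (0.11 to 0.12), close to the 0.09 that was the median of all genes. Bgn is X-linked, and the libraries differed in the sex of their cells; the part of this in its ratio was not tested. The pericyte or smooth muscle markers, whose cells also carried Aspn, summed to 57.4 UPM in WT and 70.3 in transgenic progenitors, with 4 of 10 above WT and none at 0; their part in the Aspn ratio was not tested.

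The class II members, many of which carry keratan sulphate, went both ways. Lum, which binds fibrillar collagen and is best known from the cornea, had 954 UPM in WT and 584 in transgenic progenitors, a log2 ratio of −0.71 (−0.74 to −0.68), or 1.63-fold lower. Prelp, which links collagen to basement membrane heparan sulphate, had 98.0 and 184, a log2 ratio of 0.91 (0.84 to 0.98) or 1.88-fold higher. Omd, a bone and dentine matrix member, had 5.50 and 6.64, and its log2 ratio of 0.27 had an interval from −0.06 to 0.60. Fmod, a tendon member that shares its collagen site with lumican, had 1.72 (44 UMIs) and 7.10 (187 UMIs). Its log2 ratio of 2.05 (1.57 to 2.56) rested on few cells, since 5 cells held 63.6% of its WT UMIs and 32.6% of its transgenic UMIs.

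The class III member Ogn, named after bone, had 965 and 1094 UPM, a log2 ratio of 0.18 (0.16 to 0.21). The class V member Podn, a secreted protein described in vascular smooth muscle, had 84.8 and 112, a log2 ratio of 0.40 (0.32 to 0.48) or 1.32-fold.

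Of the 7 members at 10 or more UPM in either library, Bgn, Prelp and Aspn were 1.5-fold or more higher in transgenic progenitors and Lum was 1.5-fold or more lower. Over all 8748 genes at that level, 2.74% were 1.5-fold higher and 1.76% lower, 4.5% in all. The median log2 ratio was 0.40 over the 7 members, with 6 above 0 and 1 below, and 0.09 over all genes. The all-gene median was thus above 0 too, and the 6 include Dcn at 0.11 and Ogn at 0.18. Nothing is therefore read from that count. Bgn, Prelp, Aspn and Lum kept their call in every alternative tried, and averaging over cells counted 4 members as higher instead of 3.

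The ratios of Aspn, Bgn, Prelp and Lum each kept their direction in every named progenitor state and in cluster 1, while the size of the Bgn ratio was uneven. In Dpp4-like cells 4 members (Bgn, Prelp, Aspn and Omd) were 1.5-fold or more higher and none lower, against 6.95% and 4.25% of 8543 genes. Of these, Omd reached 10 UPM in transgenic only, at 8.37 (51 UMIs) in WT and 13.0 (57 UMIs) in transgenic. Its log2 ratio of 0.64 had an interval from 0.07 to 1.22, so its call is weak. Bgn there had 143 UPM in WT (134 to 153) and 425 in transgenic (405 to 444), a log2 ratio of 1.57 (1.45 to 1.69) or 2.96-fold. In Icam1-like cells its levels were 482 and 567, a log2 ratio of 0.23 (0.17 to 0.30), and the 2 intervals do not meet. The difference between these states was described, not tested.

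Prelp had log2 ratios of 1.06 in Dpp4-like cells (44.1 and 92.0 UPM), 0.63 in Icam1-like cells (175 and 271), 0.90 in F3-like cells (74.9 and 140) and 0.95 in cluster 1 (94.1 and 182). The Icam1-like cells were made of clusters 2 and 8, and cluster 8 held 37 WT and 11 transgenic cells. In cluster 2 alone Prelp had 135 and 264 UPM, a log2 ratio of 0.97 (0.84 to 1.09). Aspn had log2 ratios of 0.75, 0.93, 0.99 and 0.91 in the same order of states.

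Lum was lower in the transgenic library in each of these classes, least so in Dpp4-like cells. Its log2 ratio was −0.49 (−0.57 to −0.40) in Dpp4-like cells, from 591 to 422 UPM. It was −1.13 (−1.19 to −1.08) in Icam1-like cells, from 1089 to 496, and −0.75 in F3-like cells, from 1178 to 700. In cluster 1 it was −0.97, from 954 to 487. The Dpp4-like value lies below the 1.5-fold used for a call, which is why no member was counted as lower there.

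In Icam1-like cells 2 members were higher (Prelp and Aspn) and 1 lower (Lum), against 3.87% and 3.92% of 9093 genes. In F3-like cells 4 were higher and 1 lower, against 5.04% and 5.16% of 9134 genes, and the 4 were Bgn (437 and 781 UPM), Fmod (6.20 and 18.4), Prelp and Aspn. Of these, Fmod reached 10 UPM in transgenic only. It rested on 23 and 102 UMIs, of which 5 cells held 91.3% and 58.8%. Cluster 1 had 2 higher and 1 lower, against 4.02% and 3.02% of 8237 genes. Dcn stayed between log2 ratios of −0.11 and 0.17 in these classes.

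**Figure D2:**
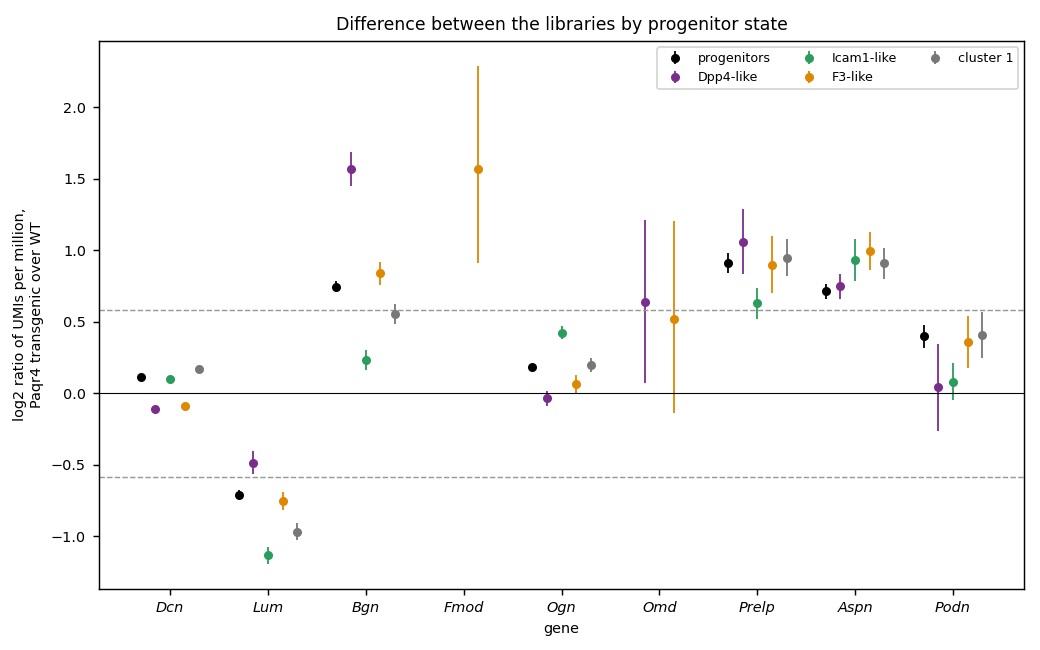
Log2 ratio of UPM, Paqr4 transgenic over WT, for each member in all progenitors, Dpp4-like, Icam1-like and F3-like cells and cluster 1, with 95% counting intervals; dashed lines mark 1.5-fold and only values at 10 or more UPM are drawn. Bgn, Prelp and Aspn lie above 0 and Lum below 0 in each class, and the Bgn point of Dpp4-like cells at 1.57 stands apart from its Icam1-like point at 0.23.

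Within single cells the same shifts appeared in the middle of the distribution. The median Dpp4-like cell had 0.95 Bgn UMIs per 10000 in WT and 3.46 in transgenic. The upper quartile of WT cells, at 1.85, lay near the lower quartile of transgenic cells, at 1.59. For Lum the median Icam1-like cell had 9.29 and 4.32 UMIs per 10000. Aspn was uneven within states: its Icam1-like median was 0 in WT and 0.53 in transgenic, while its 90th percentile was 2.93 in WT and 4.86 in transgenic.

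**Figure D3:**
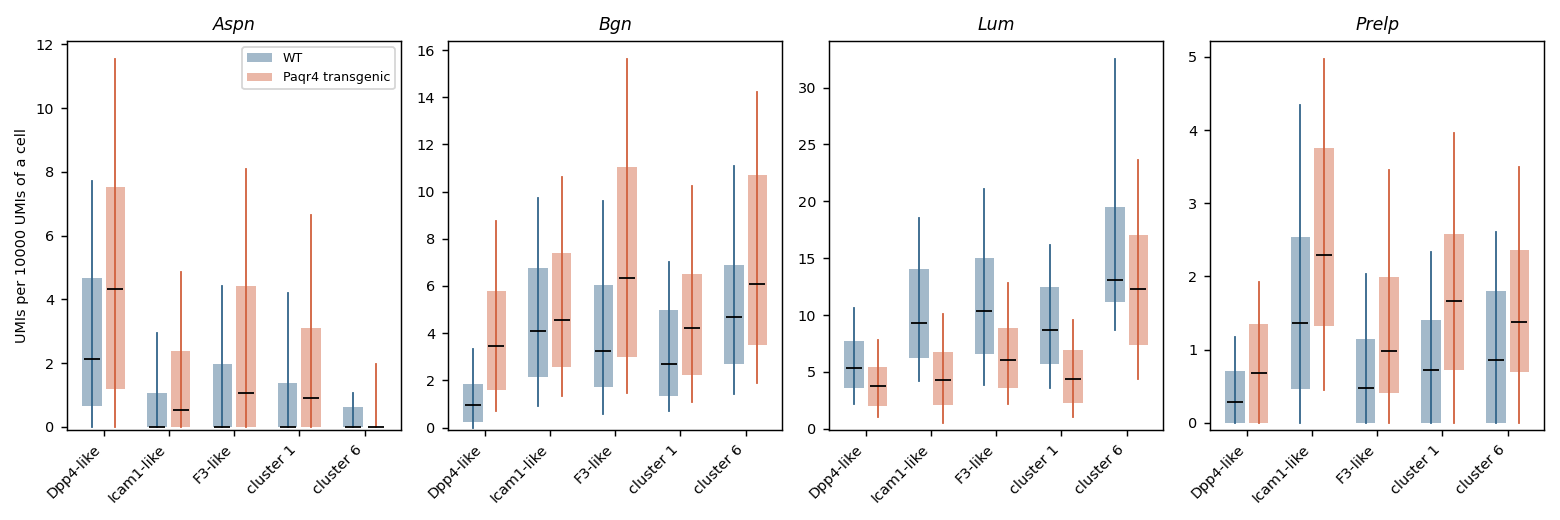
UMIs per 10000 UMIs of a cell for Aspn, Bgn, Lum and Prelp in 5 progenitor classes of each library; boxes span the 25th to 75th percentile, lines the 10th to 90th, and black marks are medians. Bgn in Dpp4-like cells moves from a median of 0.95 in WT to 3.46 in transgenic, and Lum in Icam1-like cells from 9.29 to 4.32.

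Progenitor states differed in the mix of the family. Each state was set against the other progenitors of its own library, and a member was counted only when it was 1.5-fold or more apart in both libraries. Dpp4-like cells had 1 member counted as higher, Aspn, and 3 as lower, Dcn, Prelp and Podn, against 5.4% higher and 10.1% lower of 8563 genes. Aspn had 332 UPM in WT Dpp4-like cells and 122 in the other WT progenitors, a log2 ratio of 1.45 (1.36 to 1.53). In transgenic cells it had 558 and 227, a log2 ratio of 1.30 (1.23 to 1.37).

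Podn showed the opposite order. It had 34.9 UPM in WT Dpp4-like cells against 100.4 in the others (log2 −1.52), and 35.9 against 127 in transgenic (log2 −1.82). Prelp had 44.1 against 115 in WT and 92.0 against 202 in transgenic, log2 ratios of −1.38 and −1.14. Dcn had 6459 against 10597 in WT and 5972 against 11281 in transgenic, log2 ratios of −0.71 and −0.92. These 4 calls held under each alternative tried.

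The remaining members were less clear in Dpp4-like cells. Bgn was lower there in WT, with a log2 ratio of −1.52, but −0.53 in transgenic, and Lum had −0.85 and −0.54, so neither was counted. Without the 5 cells richest in each gene, 5 members were counted as lower instead of 3. Ogn stood at 1119 and 1092 UPM against 917 and 1095 in the others. Omd stood at 8.37 (51 UMIs, 6.23 to 11.0) and 13.0 (57 UMIs, 9.88 to 16.9) against 4.60 and 5.37 in the others, log2 ratios of 0.86 (0.34 to 1.37) and 1.28 (0.80 to 1.75). Its intervals overlap those of F3-like cells, at 7.82 (5.23 to 11.2) and 11.2 (8.59 to 14.4). Fmod had 0 UMIs in WT and 2 in transgenic Dpp4-like cells.

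In Icam1-like cells Aspn and Podn ran in opposite directions too. There Prelp and Podn were counted as higher and Aspn as lower, against 4.4% and 4.44% of 8697 genes. Prelp had 175 UPM against 75.9 in WT and 271 against 146 in transgenic, log2 ratios of 1.21 and 0.90. Podn had 150.4 against 66.0 and 159 against 91.0, log2 ratios of 1.19 and 0.81. Aspn had 92.7 against 194 and 177 against 328, log2 ratios of −1.07 and −0.89. Omd, below 10 UPM, was also lower, with 2.80 (16 UMIs) against 6.27 and 3.10 (25 UMIs) against 8.20, log2 ratios of −1.16 and −1.40.

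The Icam1-like calls leaned on how the cells were grouped. With cells of at least 2000 UMIs and 1000 genes, the transgenic log2 ratio was 0.35 for Prelp and −0.20 for Aspn. Keeping doublets gave 0.51 for Prelp in WT, clustering each library on its own gave 0.45 for Podn in transgenic and −0.55 for Aspn in WT, clustering with the family's genes gave −0.54 for Aspn in transgenic, and thinning gave 0.58 for Podn in transgenic. Each of these is under 1.5-fold, and at resolution 0.3 no Icam1-like class was found.

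F3-like cells, with 4.18% of 8652 genes higher and 3.42% lower, had no member at 1.5-fold in both libraries among the 7 at 10 or more UPM. Other groupings gave up to 3 higher (each library clustered alone) and up to 2 lower (family genes used in the clustering). Bgn had log2 ratios of 0.40 and 0.57 and Prelp −0.44 and −0.49. Fmod stood at 6.20 against 0.957 UPM in WT and at 18.4 against 4.08 in transgenic, and 5 cells held 91.3% and 58.8% of the F3-like UMIs. Omd stood at 7.82 against 5.11 in WT, with a log2 ratio of 0.61 (−0.03 to 1.21), and at 11.2 against 5.43 in transgenic, with 1.05 (0.57 to 1.50). Both genes passed 1.5-fold in both libraries but lay below 10 UPM in WT. Cluster 1, with 4.01% higher and 11.0% lower of 8553 genes, also had none, and held 0 and 7 UMIs of Fmod.

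Cluster 6, led by Piezo2, Itgbl1 and Tgfbi, had the family at 1.94% of WT and 1.60% of transgenic UMIs, against 0.873% and 0.861% in Dpp4-like cells. In cluster 6 Lum and Fmod were counted as higher and Aspn as lower, against 6.97% and 6.43% of 8725 genes. Lum had 1678 UPM against 929 in WT and 1346 against 526 in transgenic, log2 ratios of 0.85 and 1.35. Aspn had 42.0 against 176 and 83.5 against 296, log2 ratios of −2.07 and −1.83. Fmod had 10.5 UPM against 1.41 in WT and 16.8 against 6.37 in transgenic. It thus entered the count only through cluster 6, as the other progenitors lay below 10 UPM in both libraries. Its values rested on 9 and 31 UMIs, of which 5 cells held 100.0% and 54.8%.

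**Figure D4:**
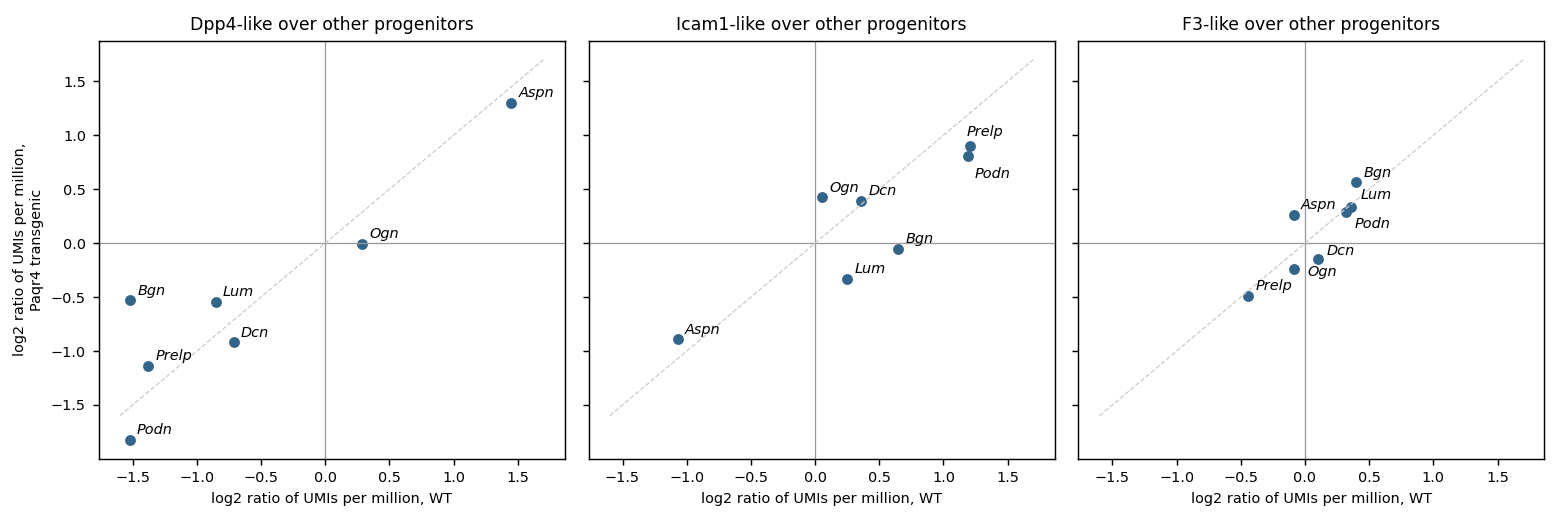
Log2 ratio of each state over the other progenitors in WT (x axis) and Paqr4 transgenic (y axis) for the 7 members at 10 or more UPM; the dashed line marks equal values. Aspn lies at the upper right for Dpp4-like cells (1.45 and 1.30) and at the lower left for Icam1-like cells, while Prelp and Podn lie the other way round.

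By share of cells with a UMI the order was not that of the levels, since Podn and Prelp stood above Aspn. Dcn had a UMI in 100.0% of WT and 99.9% of transgenic progenitors, Ogn in 97.7% and 98.2%, and Lum in 99.3% and 96.0%. Bgn had one in 91.0% and 95.8%, Podn in 68.7% and 71.8%, Prelp in 67.3% and 84.0% and Aspn in 52.2% and 58.0%. Omd with 9.58% and 9.63% and Fmod with 1.42% and 4.78% were seen in a minority of cells. Progenitors had medians of 22600 UMIs in WT and 19335 in transgenic, and endothelial cells of 9857 and 7584, so depth differed between the groups.

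Each cell was therefore thinned at random to 5000 UMIs, which kept 1102 WT and 1313 transgenic progenitors and 77 and 63 endothelial cells. Lum then had a UMI in 94.6% (93.1 to 95.9, Clopper-Pearson) of WT and 82.3% (80.1 to 84.3) of transgenic progenitors. Bgn had 68.9% (66.0 to 71.6) and 83.4% (81.3 to 85.4), Prelp 35.6% and 54.4%, and Aspn 33.8% and 44.4%. In Dpp4-like cells the Bgn share was 43.7% in WT and 80.9% in transgenic, and that of Podn 18.8% and 18.1%.

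In endothelial cells, which are not known as a source of decorin, the family's shares were low. Dcn had a UMI in 31.6% of WT and 21.5% of transgenic endothelial cells (23.4% and 17.5% when thinned), and each other member in at most 6.33%. Omd and Fmod had none in 95 and 79 cells, which allows a share of cells with a UMI of up to 3.16% and 3.80% (3 cells of the total). The limit is on cells with a UMI at the endothelial depth, not on cells that express the gene. The 7 members other than Omd and Fmod had a share in progenitors above the endothelial interval in both libraries, also with thinning. The thinned shares of Fmod, at 0.635% in WT and 2.06% in transgenic progenitors, and of Omd, at 2.99% and 2.59%, lie under the upper bounds of 4.68% and 5.69% for 0 of 77 and 0 of 63 endothelial cells. For these 2 genes a difference from endothelial cells was therefore not detectable at that depth.

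**Figure D5:**
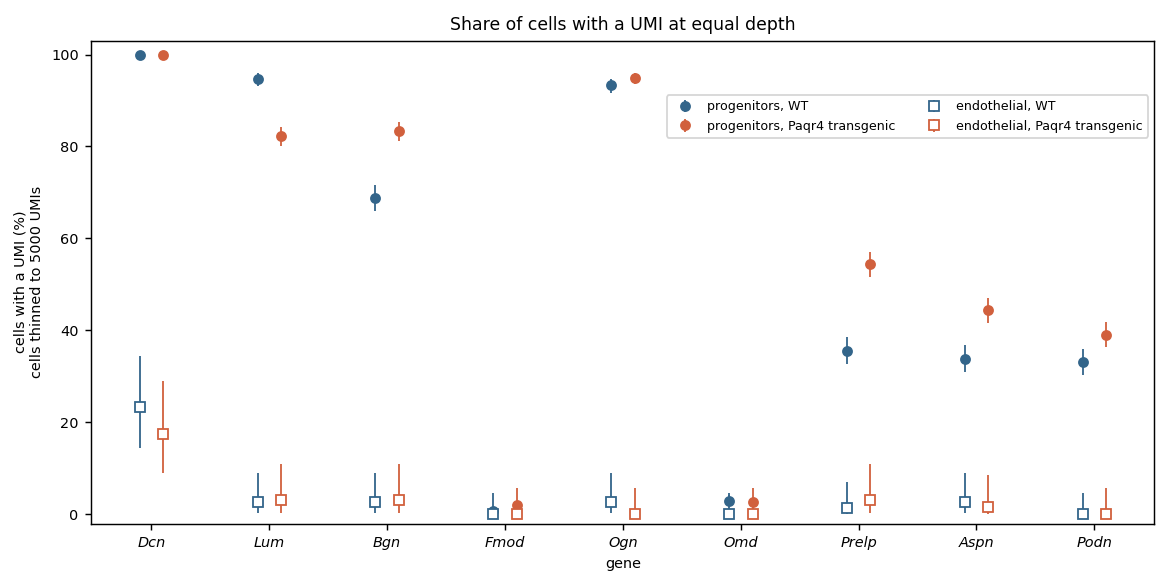
Percent of cells with a UMI of each member after thinning every cell to 5000 UMIs; filled points are progenitors and open squares endothelial cells of each library, bars are 95% Clopper-Pearson intervals. Dcn reaches 99.9% and 99.8% of progenitors against 23.4% and 17.5% of endothelial cells, and the progenitor intervals of the libraries do not meet for Lum, Bgn, Fmod, Prelp, Aspn and Podn.

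Free RNA held the same genes, measured in 968733 WT and 838916 transgenic barcodes with 50 or fewer UMIs. It contained 4165 and 5287 UPM of Dcn, 522 and 377 of Lum, 171 and 368 of Bgn, 309 and 482 of Ogn, 70.7 and 125 of Aspn, 60.2 and 76.8 of Podn and 52.1 and 121 of Prelp. The members that were higher or lower in transgenic progenitors differed the same way in these barcodes. In barcodes with 51 to 200 UMIs they did not all do so. Bgn stood at 138 in both libraries, Prelp at 39.8 (17 UMIs) in WT and 40.6 (5 UMIs) in transgenic, and Aspn at 67.9 (29 UMIs) and 56.9 (7 UMIs). Other members were lower in transgenic there, Dcn at 3941 and 1779, Lum at 519 and 130, Ogn at 351 and 146 and Podn at 53.8 and 8.12. Fmod and Omd had at most 2 UMIs in either library. These barcodes held 427351 WT and 123085 transgenic UMIs. The values of Bgn, Prelp and Aspn cannot be read apart from the lower level of the family there. By UPM every member was above its free level in progenitors. The ratio ran from 1.14 for Omd to 3.12 for Ogn in WT and from 1.46 for Podn to 2.27 for Ogn in transgenic. Haemoglobin took 30.9% and 27.8% of free UMIs but only 697 and 543 UPM in progenitors, which lowers the free level of every other gene. The ratios were not adjusted for this. Small ratios, such as 1.14 for Omd and 1.41 for Podn in WT, therefore do not show a level above free RNA. Free RNA held only 16 and 6 UMIs of Omd and 2 and 9 of Fmod, and for both genes in both libraries the intervals of free RNA and progenitors overlap.

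Haemoglobin transcripts, which are typical of red cells, served as a tracer of free RNA in each class. They took 30.9% and 27.8% of free RNA but stood at only 0.226% and 0.196% of that level in progenitors, and at 0.207% and 0.182% in Dpp4-like cells. Bgn in Dpp4-like cells stood at 83.8% of its free level in WT and 115% in transgenic, Prelp at 84.8% and 76.2%, and Podn at 58.0% and 46.8%. These shares lie far above those of haemoglobin, although the levels themselves lie near or below that of free RNA.

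In endothelial cells haemoglobin was higher, at 3.22% and 3.62% of its free level. Dcn was at 3.22% and 0.533% of its free level there, Lum at 2.81% and 1.32%, and Bgn at 2.45% and 1.80%, which is at or below the haemoglobin value. The WT Dcn level of 134 UPM came from 128 UMIs, and 5 cells held 78.1% of them. Prelp at 12.1% and 11.0% and Aspn at 29.6% and 19.8% lay above the haemoglobin value in both libraries, and Ogn in WT only, at 5.75% (17 UMIs) and 0.688%. The Aspn counts were 20 UMIs in 3 cells and 15 UMIs in 1 cell, and those of Prelp 6 and 8 UMIs. Lymphatic endothelial cells had haemoglobin at only 0.290% and 0.192% of its free level. Why it was higher in blood endothelial cells was not tested, so its value there may not measure free RNA. Dcn, Lum and Bgn in blood endothelial cells lay above the lymphatic haemoglobin value in both libraries.

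Other cell types were few but carried distinct members. Pericytes or smooth muscle cells (11 WT and 6 transgenic cells) had Aspn at 434 (320 to 576) and 516 (337 to 755) UPM, in 9 of 11 and 5 of 6 cells, with Bgn at 362 and 139. Dcn there had 6 and 0 UMIs, so these cells held Aspn with little Dcn. Lymphatic endothelial cells (6 in each library) had Prelp at 440 (292 to 636) and 498 (331 to 719), from 28 UMIs in each library and in 5 and 6 of the 6 cells. That compares with 6.28 and 13.3 in blood endothelial cells, and the other 8 members had at most 1 UMI. Such Prelp levels were not confined to lymphatic endothelial cells. Cluster 8 of the Icam1-like progenitors (37 and 11 cells) had Prelp at 480 (429 to 535) and 631 (511 to 769), with overlapping intervals.

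Mesothelial cells (11 and 10), the lining of body cavities, had the highest Fmod level of the named cell types, at 99.0 (62.7 to 148) and 133 (82.1 to 203) UPM in 6 and 8 cells. Dcn was at 8364 and 6603 there, and Aspn had 0 UMIs in both libraries. Such Fmod levels were not confined to mesothelial cells. The 11 transgenic cells of cluster 8, among the Icam1-like progenitors, had 97.5 UPM (54.6 to 161, 15 UMIs), which overlaps both mesothelial intervals. The 37 WT cells of cluster 8 had 9.02 (6 UMIs). The mesothelial markers summed to 502 and 381 UPM in progenitors, with 1 and 5 of 9 genes at 0, and only 1 gene above WT in transgenic. Their part in the Fmod difference between the libraries was not tested.

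Of the 7 lists of genes that work with the family, 2 held genes that were 1.5-fold or more apart between the libraries. Over all 8748 genes at 10 or more UPM in either library, 2.74% were that much higher and 1.76% lower in transgenic. Of the 22 genes of chondroitin and dermatan sulphate chain synthesis, 16 were at 10 or more UPM in progenitors and 0 were 1.5-fold apart, with a median log2 ratio of 0.17. The largest were Chst12 at 0.30, Chpf2 at 0.29 and B3gat3 at 0.28, which act in chain building or sulphation, and Chst15 at −0.30. Of 7 keratan sulphate genes 3 were at that level and 0 were called, with B3gnt2, a chain-extending enzyme, at 119 and 164 UPM (log2 0.46), Chst1 at 0.42 and B4galt1 at 0.17.

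Fibrillar and fibril-associated collagens, the main partners of the family, had 11 of 13 genes at that level, 0 called and a median of 0.03. Col1a2 had 1385 and 1699 UPM (log2 0.30), Col5a1 and Col5a2 had 0.16 and 0.14, and Col14a1, a fibril-associated collagen, had 1090.4 and 840.4 (log2 −0.38). The other leucine-rich repeat proteoglycans had 2 of 8 genes at that level and 0 called, with Ecm2 at 192 and 227 (log2 0.24) and Tsku at 0.05.

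Of the proteases that process or degrade the family, 10 of 12 genes were at that level, 0 were higher and 1 was lower, with a median log2 ratio of −0.15. That was Tll1, a tolloid protease, with 13.3 and 4.93 UPM (log2 −1.43). Mmp2 had 326 and 237 (log2 −0.46), Htra1 238 and 174 (log2 −0.45) and Mmp3 23.9 and 30.4 (log2 0.35). Among receptors and ligands 13 of 15 were at that level, 0 were higher and 2 lower, with a median of 0.07. These were Tlr2, a receptor for biglycan, with 11.7 and 5.35 (log2 −1.12), and Met, a receptor for decorin, with 10.6 and 4.55 (log2 −1.21). Tll1, Tlr2 and Met each reached 10 UPM in WT only, so they entered the count through the library where they were higher. Tgfb1 was at a log2 ratio of 0.46 and Itga2 at −0.56.

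Other proteoglycans had 8 of 18 genes at that level and 0 called, with a median of 0.02. Vcan, the large aggregating proteoglycan versican, had 395 and 564 UPM (log2 0.51). The glypicans, which are held in the cell membrane by a lipid anchor, went both ways, with Gpc3 at 638 and 480.1 (log2 −0.41), Gpc6 at 2458 and 2042 (log2 −0.27) and Gpc4 at 0.40.

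The genes whose pattern was most like each member were found over 11 points, the progenitor clusters of each library with at least 20 cells, among 4846 genes. The points share libraries and cells, and the correlations are a description only. Podn was nearest to Gnai1 (Pearson r 0.99), Tmem204 (0.98) and Sgip1 (0.98), and Prelp to Plod1 (0.98), Jup (0.97) and Srpr (0.96). Aspn was nearest to Rapgef1 (0.97), Akap13 (0.97) and Fer (0.96). Dcn was nearest to Tceal9 (0.95), Gk5 (0.95) and Ptprk (0.94), Lum to Htra1 (0.93), Mdk (0.91) and Rev3l (0.90), and Bgn to Fbln2 (0.93), Myo5a (0.93) and Ppl (0.90). Ogn was nearest to Rab5c (0.93), Capza2 (0.87) and Esd (0.85), and no other member came among the nearest 3 of any member.

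Variation from cell to cell was read as variance over mean. In progenitors thinned to 5000 UMIs the variance was 12.2 and 12.3 times the mean for Dcn, 3.23 and 3.77 times for Aspn, 2.67 and 2.72 times for Lum and 1.56 and 1.44 times for Prelp. At the same relative spread this ratio rises with the mean. The means were 49.2 and 53.2 UMIs for Dcn, 0.786 and 1.29 for Aspn, 4.85 and 2.92 for Lum and 0.546 and 0.953 for Prelp. The ratio therefore does not rank the members by how uneven they were. Spearman correlations between members across these cells were weak. The lowest were those of Dcn with Aspn, at −0.26 in WT and −0.20 in transgenic. The highest was 0.34 in WT, for Dcn with Lum, and 0.27 in transgenic, for Dcn with Ogn. Sparse counts limit these values, so no order is read from them.

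Some members share their locus with other genes. Cenpp, on the opposite strand, spans Aspn, Omd and Ogn and overlaps exons of Aspn, at 10.3 and 13.6 UPM in progenitors. Gm15851 is antisense to exons of Prelp, at 0.312 and 0.493. Scp2, at 69.7 and 73.6, lies on the same strand as Podn, with no shared exon. The sources used here do not say whether intron reads were counted, so the split of reads between these overlapping genes is uncertain.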

How the data were processed

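The authors deposited UMI counts, whole-number counts of molecules per gene for every barcode, per the file headers. Cell Ranger 7.0.0 and mm10 are listed in the submitters' processing notes, while the matrix header has version 4. The sources used here do not state whether intron reads were counted. Of 32286 features, 78 shared a symbol and were summed.

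Cells had at least 1000 UMIs, 500 genes and at most 10% mitochondrial UMIs, and the libraries shared 0 of these barcodes. Scrublet (scanpy 1.11.5) marked 0.0752% and 0.262% of cells, which were removed. A share this low means that doublets were largely not removed. Counts were scaled to 10000 per cell and log-transformed, with no correction between libraries. From the 2000 most variable genes, the 3 that belonged to the family or to related leucine-rich repeat genes were left out. The other 1997 gave 30 principal components, 15 neighbours and Leiden clusters (leidenalg 0.10.2) at resolution 0.5.

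A marker was on at 25% of its highest cluster level and 20 UPM (UMIs out of 1000000 in that class). A class needed 50% of its markers and at least 3, and a state at least 3 markers 1.5-fold up. Top genes of a cluster were read only if found in 25% of its cells. These thresholds were set after the clusters had been seen. Of 16 clusters 2 stayed unnamed (94 cells). Cluster 7 (34 WT and 30 transgenic cells) was led by haemoglobin genes. Cluster 9 (25 and 5 cells) was led by digestive enzyme genes such as Ctrb1, Cela3b and Pnlip. Whether tissue other than fat was taken along was not tested.

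UMIs were summed per class and library and divided by the class total. Progenitors held 25647451 and 26348655 UMIs, so a floor of 3 UMIs is 0.117 and 0.114 UPM. Calls needed 1.5-fold and 10 UPM. The members and gene lists were chosen with earlier results of these data known. The text names all members, up to 4 genes of each other list with the largest ratio at 10 or more UPM, and the 3 genes most like each member at 50 or more by log2(level + 10). Cells were not treated as replicates. The counting was tested on simulated data. Python 3.11.15, numpy 2.4.6, scipy 1.17.1 and pandas 2.3.3 were used.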

Additional observations from a re-analysis of the deposited data

How the results depend on the processing

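No paired analysis was possible because each genotype had 1 library, and for the same reason no replicate could be left out. Across 13 alternatives the transgenic over WT ratios of the 9 members gave 117 values, of which 90 moved by less than their counting interval, 27 moved further. None that was 1.5-fold apart changed sign, whereas Omd, whose interval spans 0, was −0.13 with thinning. Setting the median ratio of abundant genes to no difference shifted all ratios by 0.08. Ratios of a state to the other progenitors gave 510 values, of which 272 stayed within their interval, 234 moved further and 4, each 1.5-fold apart at 10 or more UPM in the reported grouping, changed sign. Below that level, ratios past 1.5-fold also changed sign, as far as −0.99 for Fmod and −0.35 for Omd in WT F3-like cells and 0.016 for Omd in transgenic Icam1-like cells. The 4 were in transgenic F3-like cells: with at least 2000 UMIs and 1000 genes Fmod was −1.74 and Omd −0.65, and Omd was −0.48 at resolution 0.3 and −0.21 after separate clustering of the libraries. Without the 5 cells richest in a gene, 5 members rather than 3 were lower in Dpp4-like cells. In Icam1-like cells 1 member rather than 2 was higher with thinning, the higher cell minimum, doublets kept or separate clustering, and 0 rather than 1 was lower with the higher cell minimum, family genes used in the clustering or separate clustering. In F3-like cells, with 0 members called, 1 was higher with thinning or at resolution 0.3, 2 higher and 2 lower with family genes used, and 3 higher with separate clustering. With barcodes of 51 to 200 UMIs as free RNA, 7 rather than 9 members lay above it in progenitors. The cause was not tested. Depth limits Fmod and Omd most.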
